A study of Mus musculus with 4 samples.

Results

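The clustered protocadherins are cell-surface adhesion proteins encoded by 3 neighbouring gene arrays named alpha, beta and gamma. All row names of the deposited table with a clustered protocadherin symbol were taken, which gave 57 members of 32681 genes: 13 alpha, 22 beta and 22 gamma. The libraries came from primary neuron cultures of embryonic day 13 neocortex from wild-type mice of the outbred CD-1 strain. The control group is 2 cultures that received a control shRNA, a short hairpin RNA. The other group is 2 cultures that received an shRNA against DcpS, the scavenger enzyme of mRNA caps. Both groups therefore received a hairpin, and the titles give the DcpS hairpin a single name. The libraries are called control 1 and 2 and DcpS 1 and 2, after the set numbers in the titles.

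Each alpha and gamma member has its own promoter and its own large variable exon, which is spliced to constant exons shared by the whole array. Beta members are encoded by single exons and lack a shared constant part. Neurons choose a few promoters of each array with the help of the DNA-binding protein CTCF and cohesin. The resulting proteins bind copies of themselves on other cells, which lets neurites of a cell recognise and avoid each other. The last members of the alpha and gamma arrays, called C types, are used more uniformly between cells.

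Dcps, the targeted gene, fell from 499.8 and 507 normalised reads in the controls to 114 and 119.6 with DcpS shRNA. A normalised read count is the number of reads of a gene divided by the size factor of its library. Libraries held 17754768 to 21793685 recovered reads. Of 18110 genes tested, 1048 (5.79%) changed at a Benjamini-Hochberg adjusted p under 0.05 in limma, 661 lower (3.65%) and 387 higher (2.14%). The 10 markers of excitatory cortical neurons summed to 4703 to 4802 CPM (a gene's share of its library's reads, on the usual CPM scale) in the controls and 4464 to 4588 with DcpS shRNA, with Slc17a7 (log2 fold change 0.52) and Rbfox3 (0.24) called higher and none lower. The 6 interneuron markers summed to 13.2 to 13.7 CPM in the controls and 12.1 to 12.2 with DcpS shRNA. None of them was called, and 3 had a fold change below 0 and 3 above. The labels do not say whether cultures were prepared from separate animals, and the p-values cover no more than the spread of these 4 libraries, possibly a technical spread. In bulk RNA, fewer cells of a type and less RNA per cell cannot be told apart.

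The arrays lie in a row on chromosome 18 (GRCm38, GENCODE M21, plus strand). The alpha array spans 36930184 to 37187661, the beta array 37264938 to 37524479 and the gamma array 37661793 to 37841873. Every alpha member shared at least 2860 exon bases with another gene on the same strand, and every gamma member at least 2116. Of the 22 beta members only Pcdhb21 and Pcdhb22 did, over 455 bases. The members' read counts did not all rest at a common level set by the shared exons. Pcdhga10 had 5.70 and 1.03 normalised reads in the control libraries, against 1.82 and 3.35 in the DcpS libraries, and Pcdha4 had 12.4, 7.18, 14.5 and 12.3 in the same order. With strand ignored, Pcdhga10 has 0 exon bases that lie in no other annotated gene, because the antisense gene Gm26672 covers all 2613 bases of its own part. Pcdha4 has 404 such bases. These bases are called own exon below, and the values of these 2 genes say little about their expression.

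Levels of different genes were compared only as normalised reads per kilobase of own exon, averaged over the 4 libraries, for members with at least 1000 such bases. Pcdha11 was left out because its symbol has 2 gene IDs. Pcdhgc3, a gamma C type that acts in dendrite growth, stood highest at 352, and was also highest with strand used (189.9) or over all its exons (117). Next came Pcdhga3 (140.1), Pcdhga11 (117), Pcdhb20 (114), Pcdhga2 (112) and Pcdhga7 (111). The places of Pcdhga11 and Pcdhga7 rest on ignoring strand, since with strand used their levels were 55.9 and 91.9, the latter below Pcdhga4 (105), Pcdhb17 (102) and Pcdhgc4 (92.9). Over all exons, shared bases included, Pcdhb20 stayed at 114 and Pcdhb17 at 102. Below both then stood Pcdhga3 at 77.2, Pcdhga2 at 61.4, Pcdhga7 at 54.6 and Pcdhga11 at 31.0. The order of gamma and beta members thus depends on which exons are counted. The lowest levels were 0.600 for Pcdhb1, 5.25 for the alpha C type Pcdhac1 and 5.78 for Pcdha1. Pcdhb1 had 2, 2, 0 and 2 reads in control 1, control 2, DcpS 1 and DcpS 2, and a true level of up to 3 reads can give a 0.

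**Figure D1:**
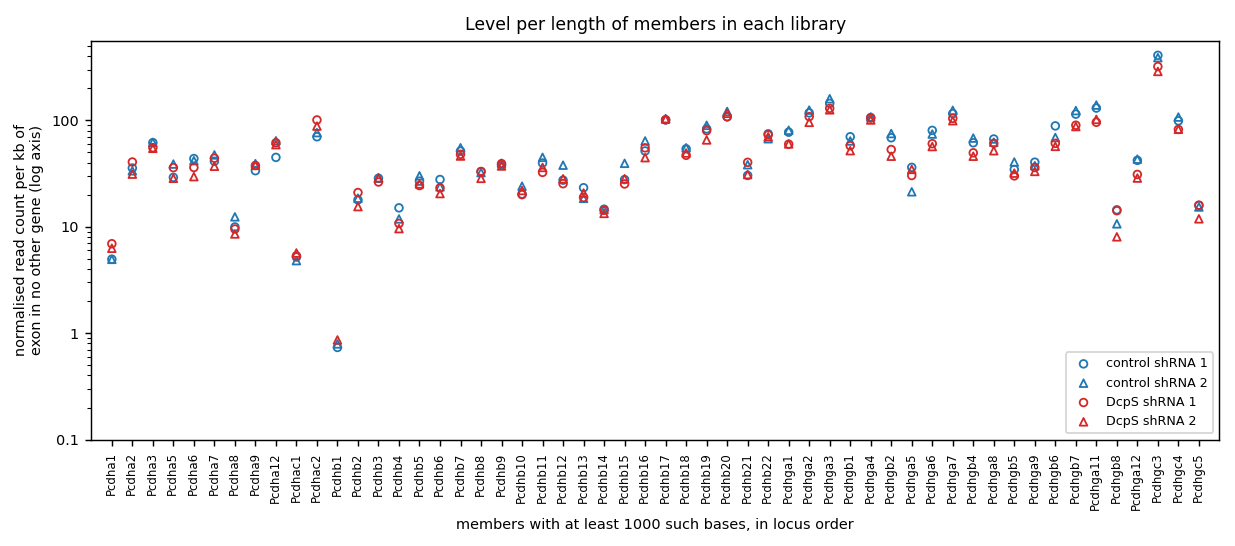
Normalised reads per kilobase of own exon (log axis) in each of the 4 libraries, for members with at least 1000 own exon bases in their order along the locus. Pcdhgc3 is the highest in every library and Pcdhb1 the lowest, with its 0 in DcpS 1 not drawn on the log axis. Pcdha11 is left out.

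Level went with place in the beta array. The last 7 members, Pcdhb16 to Pcdhb22, ran from 35.1 (Pcdhb21) to 114 (Pcdhb20) normalised reads per kilobase. Pcdhb2 to Pcdhb15 ran from 11.8 (Pcdhb4) to 50.3 (Pcdhb7), so the ranges overlap. This split of the array was made after the values were seen and was not tested. In the alpha array Pcdhac2, the C type nearest the constant exons, was highest (84.2) among the members compared, which do not include Pcdha11.

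Gamma protocadherins were lower with DcpS shRNA, while alpha and beta members gave no call and the beta sum was lower by less. With 5.79% of all genes tested called, 0 calls among 13 alpha and 21 beta members is not far from that share. Summed over its 22 members, the gamma array had 4684 and 4714 normalised reads in the control libraries, against 3877 and 3641 in the DcpS libraries, which left 80.0% ± 3.57 of the control mean (SD, n = 2 per group). Both DcpS libraries lay below both controls, and the control libraries differed from each other by far less than from either. The beta sums were 3968 and 4199 in the control libraries, against 3849.6 and 3671 in the DcpS libraries (92.1% ± 4.81). There too, both DcpS libraries lay below both controls. The alpha sums were 1076 and 1203 in the control libraries, against 1220.2 and 1105 in the DcpS libraries (102% ± 10.8), so those groups overlap. These sums are descriptions, and the difference between arrays was not tested.

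**Figure D2:**
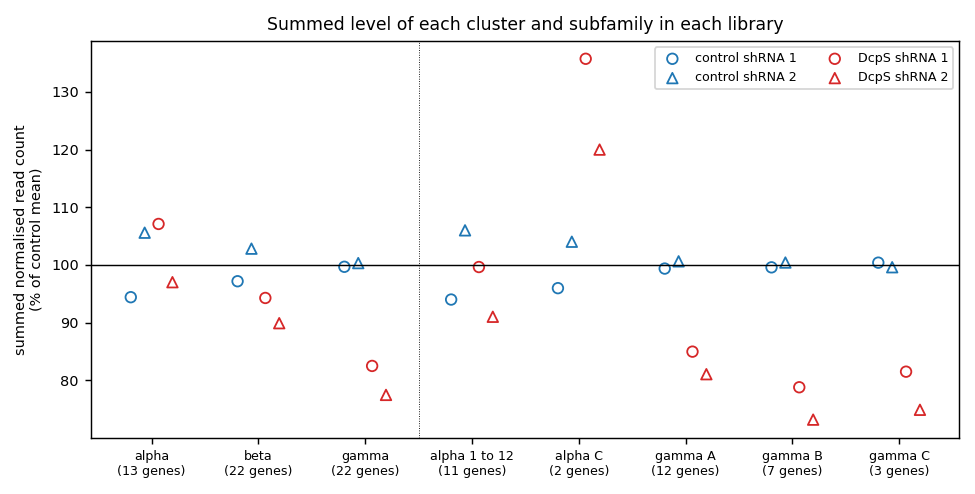
Summed normalised reads of each array (left of the dotted line) and of each subfamily (right), as a percentage of the control mean, with a point for each library. The DcpS points lie at 82.5% and 77.5% for gamma and at 107% and 97.0% for alpha.

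Of the 22 gamma members, 21 passed the filter on low counts and 5 of these were called lower (23.8%, against 3.65% of all genes tested). None was called higher. The fold change was below 0 for 20 of the 21, against 49.8% of all genes tested, with a median of −0.29 on the log2 scale, against 0.00 over all genes. In 18 of the 21, both DcpS libraries lay below both controls, against 24.0% of all genes tested. Members of the array share libraries and constant exons, so they are not independent of each other.

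By subfamily, 1 of 11 tested gamma A members, 3 of 7 gamma B members and 1 of 3 gamma C types were called lower. Their medians were −0.25, −0.41 and −0.32 on the log2 scale. The subfamilies were not tested against each other.

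The lowest adjusted p among members was that of Pcdhgc3, which had 746 and 709.7 normalised reads in the control libraries, against 585 and 526 in the DcpS libraries. The groups do not overlap, and the lower DcpS library is DcpS 2. Its log2 fold change was −0.39 (SE 0.08, limma, Benjamini-Hochberg adjusted p 0.00525), with a mean of 728 ± 25.6 against 556 ± 41.6 (SD, n = 2 per group). This call held in each of the 12 alternative fits, with adjusted p from 3.01e-05 to 0.0337.

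The largest falls in the array were in Pcdhgb2 and Pcdhga12, a gamma B and a gamma A member. Pcdhgb2 had 190.0 and 208 normalised reads in the control libraries, against 147 and 127 in the DcpS libraries, a log2 fold change of −0.54 (SE 0.13, limma, Benjamini-Hochberg adjusted p 0.0224). Pcdhga12 had 174 and 178 in the control libraries, against 128 and 118 in the DcpS libraries (log2 fold change −0.51, SE 0.13, limma, Benjamini-Hochberg adjusted p 0.0285). In both genes every DcpS value was below every control value.

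The other called members were Pcdhgb4 and Pcdhgb7. Pcdhgb4 had 221 and 245 normalised reads in the control libraries, against 178 and 165 in the DcpS libraries (log2 fold change −0.44, SE 0.12, limma, Benjamini-Hochberg adjusted p 0.0377). Pcdhgb7 had 209 and 226 against 164 and 159.8 (log2 fold change −0.42, SE 0.12, limma, Benjamini-Hochberg adjusted p 0.0479). These calls are weaker than that of Pcdhgc3. DESeq2 called 1 gamma member, Pcdhgc3 (1.72% of all genes lower), edgeR 6 (3.85%) and a fit with the set number as a term 10 (5.41%). The limma count without control 1 was 3, without control 2 was 2, without DcpS 1 was 7 and without DcpS 2 was 1.

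Several gamma members came close to the threshold without passing it. Pcdhgc4, the C type known to be needed for neuron survival, had 345 and 374 normalised reads in the control libraries, against 286 and 287 in the DcpS libraries (log2 fold change −0.32, SE 0.10, limma, Benjamini-Hochberg adjusted p 0.0570). Pcdhga1 had 220.4 and 229.7 against 169.9 and 171 (adjusted p 0.0526), and edgeR called it lower. The values of Pcdhgb6 were 228 and 177 in the control libraries, against 156 and 146 in the DcpS libraries, with adjusted p 0.101 in limma. Closer to the threshold than Pcdhgb6 were Pcdhga11 and Pcdhga6 (limma, Benjamini-Hochberg adjusted p 0.0608 and 0.0684). Pcdhga11 had 164 and 175 normalised reads in the control libraries, against 121 and 129 in the DcpS libraries. Pcdhga6 had 211 and 195 against 158 and 149. The groups do not overlap in any of these genes.

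The gamma A members with the most reads, Pcdhga3, Pcdhga2 and Pcdhga7, lay lower without a call. Pcdhga3 had 376 and 416 normalised reads in the control libraries, against 338 and 327 in the DcpS libraries, a log2 difference of −0.25 (SE 0.09). Pcdhga2 had 303 and 322 against 279.8 and 247, and Pcdhga7 had 297 and 319 against 268 and 255. None of these passed the test (limma, Benjamini-Hochberg adjusted p 0.143, 0.204 and 0.213). Pcdhga4 was nearly level, with 167 and 169 against 165 and 159.

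The tested gamma members whose groups overlapped were Pcdhga5, Pcdhgb8 and Pcdhgc5. Pcdhga5 was the only tested gamma member with a fold change above 0: it had 92.2 and 54.4 normalised reads in the control libraries, against 77.2 and 88.3 in the DcpS libraries, and without control 1 the value was larger while without control 2 it turned to −0.16. Pcdhgb8, which GENCODE lists as a polymorphic pseudogene, had 36.1 and 26.7 against 35.4 and 20.1. Pcdhgc5, a C type, had 73.2 and 70.8 against 73.6 and 54.8, so only DcpS 2 was low. The SE on the log2 scale was 0.22 for Pcdhga5 and 0.31 for Pcdhgb8.

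**Figure D3:**
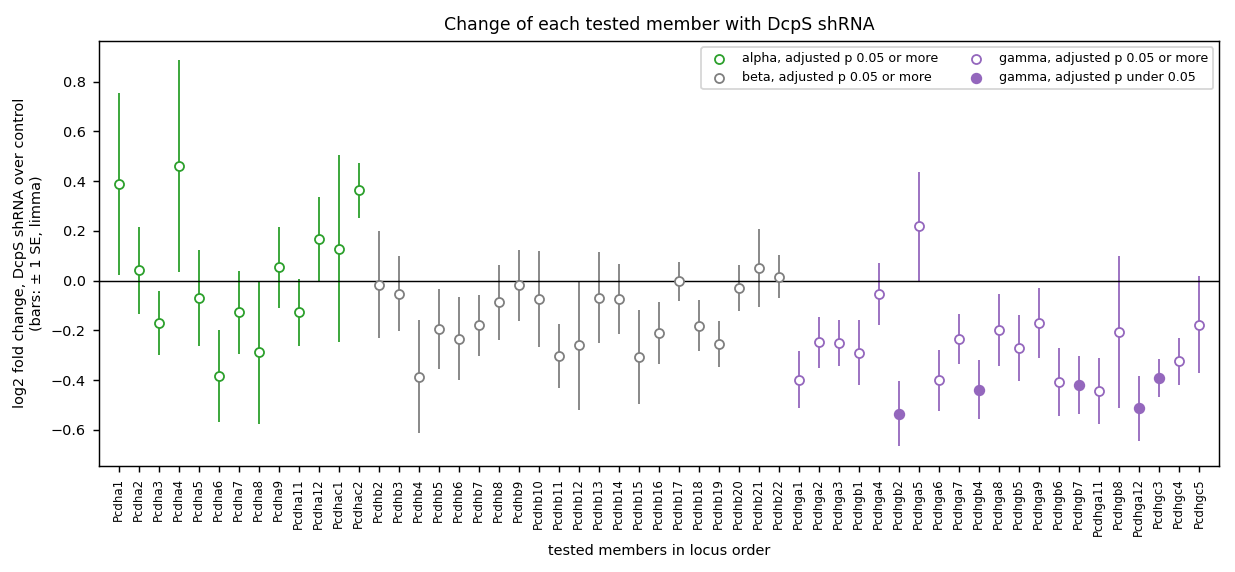
Log2 fold change of DcpS shRNA over control for the 55 tested members in locus order, with bars of 1 SE from limma. All but Pcdhga5 of the 21 gamma members lie below 0, and the 5 filled points are the called ones.

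All 13 alpha members were tested. In limma 0 were called in either direction, against 5.79% of all genes tested, with 1 at an unadjusted p under 0.05. Their median was 0.04 on the log2 scale, with 6 below 0 and 7 above. Both DcpS libraries lay below both controls in 3 and above both controls in 3, against 24.0% and 24.4% of all genes tested. DESeq2 and edgeR also called 0.

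The alpha member with the smallest p was Pcdhac2, a C type that acts in the spacing of serotonergic axons, and its values were higher with DcpS shRNA. It had 213 and 233 normalised reads in the control libraries, against 306 and 268 in the DcpS libraries, so the groups do not overlap. The log2 fold change was 0.36 (SE 0.11) and did not pass the test (limma, Benjamini-Hochberg adjusted p 0.0677). It was called when control 2 (adjusted p 0.0430 in limma) or DcpS 2 (0.0178) was left out, within a range of 0.0177 to 0.377 over the alternatives. Its share of the summed alpha reads was 19.8% and 19.4% under control shRNA, against 25.1% and 24.3% under DcpS shRNA. The other C type, Pcdhac1, had 13.3 and 12.3 normalised reads against 13.6 and 14.5, a log2 difference of 0.13 with an SE of 0.38.

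The remaining alpha members lay on both sides of 0, and none passed the test. Pcdha3 had 153 and 154 normalised reads in the control libraries, against 137 and 135 in the DcpS libraries, while Pcdha12 had 87.4 and 125 against 119.9 and 115. The row named Pcdha11 had 147 and 175 against 145 and 149, but GENCODE M21 gives this symbol to 2 neighbouring gene IDs, so what the row counts is uncertain. The lowest fold changes were in Pcdha6 (82.7 and 79.0 against 68.1 and 55.9) and Pcdha8 (24.7 and 30.8 against 23.6 and 21.2). The highest were in Pcdha4, given above, and Pcdha1 (12.4 and 12.3 against 17.3 and 15.6), both with few reads.

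Of the 21 beta members tested, 0 were called (limma, against 5.79% of all genes), with 2 at an unadjusted p under 0.05, both lower. Their median was −0.09 on the log2 scale, with 19 of the 21 below 0, against 49.8% of all genes tested. In 8 of the 21 both DcpS libraries lay below both controls (38.1%, against 24.0% of all genes tested). In 0 of the 21 both lay above both controls, against 24.4%. DESeq2 and edgeR also called 0.

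The beta member with the most reads, Pcdhb19, had 595 and 643 normalised reads in the control libraries, against 572 and 468 in the DcpS libraries. Its log2 fold change was −0.26 (SE 0.09, limma, Benjamini-Hochberg adjusted p 0.130), and DcpS 2 alone was well below the controls. It was called lower without DcpS 1 (limma, Benjamini-Hochberg adjusted p 0.00127, in a range of 0.00127 to 0.589 over the alternatives). By reads, Pcdhb17 came next and was level at 471 and 485 against 473 and 480.5, and Pcdhb22 had 461 and 414 against 450.6 and 432. With an SE of 0.08 for Pcdhb17 and 0.09 for Pcdhb22, these are among the most precise values in the locus.

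The largest beta differences were in genes with fewer reads. Pcdhb4 had 56.1 and 44.1 normalised reads in the control libraries, against 39.98 and 35.8 in the DcpS libraries, and Pcdhb15 had 77.9 and 110.8 against 70.9 and 79.3. Pcdhb21 lay highest at a log2 difference of 0.05, with 129 and 163 against 172 and 132. None of them passed the test.

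**Figure D4:**
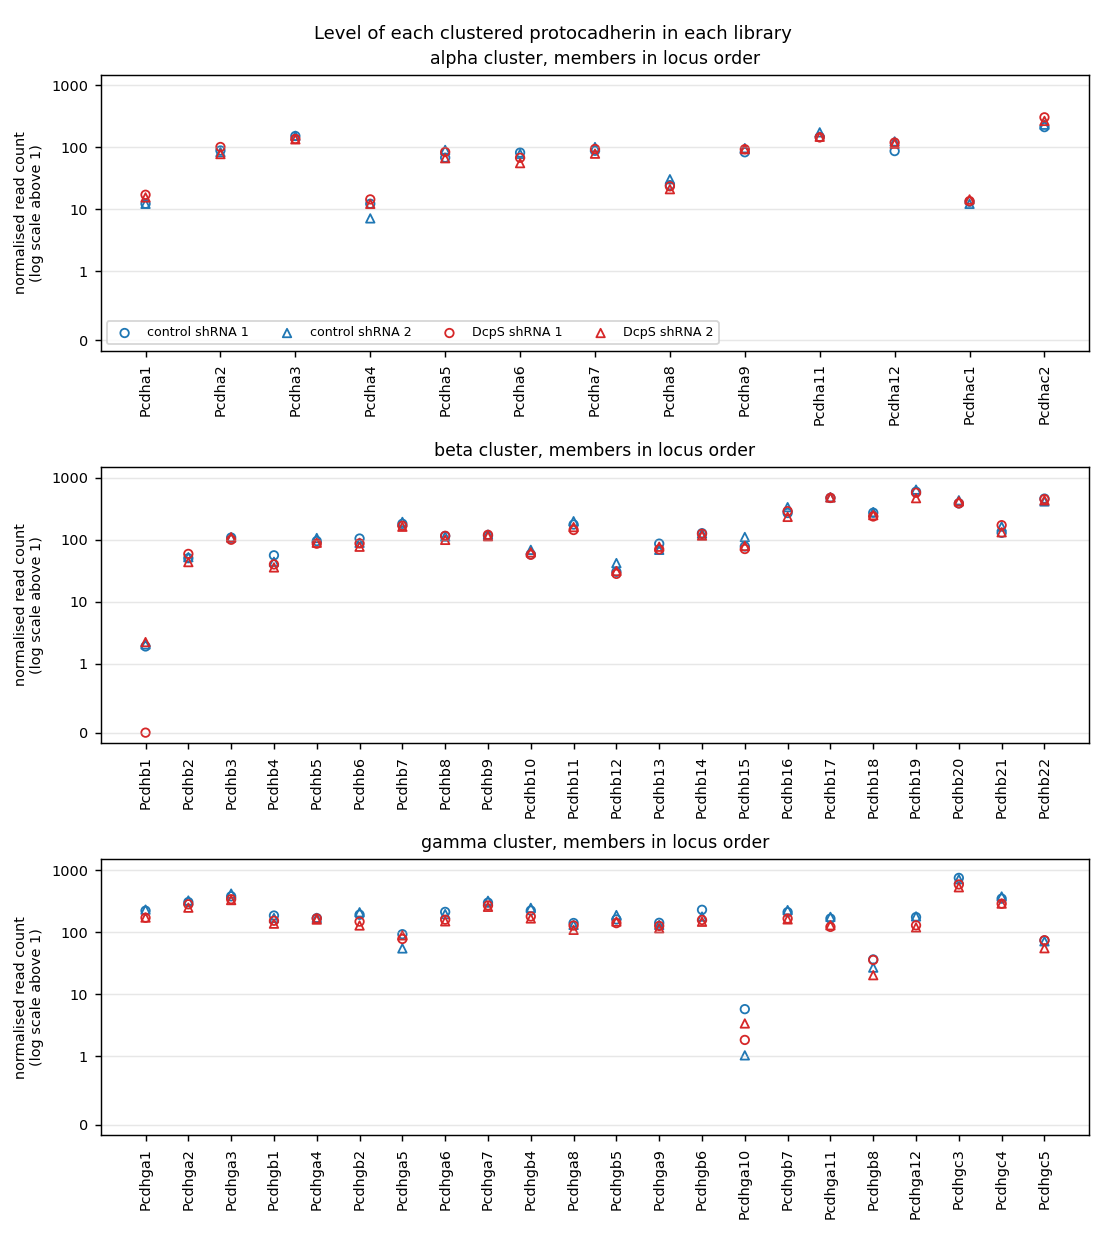
Normalised read count of all 57 members in each library (log scale above 1), in locus order within each array. Gamma members sit mostly between 100 and 400, with the DcpS points below the control points in 18 of the 21 tested, while alpha and beta points of the groups are largely mixed.

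The gamma array also differs from the other arrays in a sequence feature of its shared 3′ end. Earlier results on these data had singled out the overlapping 7-base words ACGTGCA and CACGTGC, which are both in the annotated 3′ UTR of Dcps and occur often in the 3′ UTRs of genes lower with DcpS shRNA. The hairpin's own sequence is not given in the sources here. The words were searched on the transcript strand only. CACGTGC stands in the shared gamma 3′ UTR, beginning 148 bases after the stop codon of the constant part, and so belongs to all 22 gamma members through a single genomic site. A further site was annotated for Pcdhgc3 and Pcdhgc5. Neither word is in the 3′ UTR of any of the 13 alpha members, and among 22 beta members only Pcdhb17 has CACGTGC.

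Among all annotated genes scanned, 7.37% have either word. In genes tested and scanned the share was 9.48%, and among the called lower genes it was 34.7%. The 579 tested genes outside the gamma array with CACGTGC and without ACGTGCA had a median log2 fold change of −0.05, with 11.2% called lower, against 0.01 and 3.40% for genes with neither word. The words were singled out on these same data, so these shares are descriptions and give no independent support for a part of the words. Pcdhb17, with the word, was level, as given above. A match is a string of letters and not a shown binding site, and the part of this word in the lower gamma values was not tested.

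Several markers of non-neuronal cells were lower beside the gamma array, and some were higher. The counts here are to be read against 3.65% of all genes called lower and 2.14% called higher. Of 8 meningeal fibroblast markers 6 were called lower and 0 higher, and they summed to 563 to 620 CPM in the controls and 332 to 343 with DcpS shRNA. The lowest was Foxd1, with 10.1 to 18.5 normalised reads per library. Of 6 endothelial and mural markers 3 were called lower, and the list summed to 34.3 to 38.2 CPM against 20.3 to 21.9. Those 3 were Kdr, Pdgfrb and Acta2. The endothelial marker Pecam1 went the other way without a call (5.70 and 12.3 normalised reads against 19.99 and 14.5), the groups of Cdh5 overlapped, and Cldn5 was under 10 reads in every library.

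Of 8 astrocyte markers 7 were tested, with 3 called lower (Gfap, Aqp4 and Gja1) and 1 higher (Aldoc). In 6 of the 7 both DcpS libraries lay below both controls, against 24.0% of all genes tested. The median log2 fold change of the 7 was −0.43. Their sum, of which Aldoc is the largest part, was 441 to 456 CPM against 433 to 443. S100b was under 10 reads. Of 4 choroid plexus markers 3 were tested and Ttr was called lower. The list summed to 270.4 to 281 CPM against 206 to 222, which is 77.5% of control, and Ttr is the largest part of that sum. Folr1 lay lower without a call, the groups of Clic6 overlapped, and Kl was under 10 reads in every library. Among the 6 oligodendrocyte lineage markers Pdgfra was called lower and Mbp higher, with sums of 25.7 to 28.2 CPM against 24.9 to 25.9. Radial glia markers gave 1 call, higher, and summed to 849 to 897 CPM against 926 to 969. No microglia marker (6.42 CPM in both controls, 5.0 to 5.63 with DcpS shRNA) or Cajal-Retzius marker (394 to 396 against 347 to 388) was called in limma, edgeR or DESeq2, and none had an unadjusted p under 0.05 in limma. Both DcpS libraries lay below both controls in 3 of 4 tested microglia markers and 2 of 3 Cajal-Retzius markers. They lay above both in 1 and 0. The microglia markers had few reads, so a missing call says little there. The part of these cells in the gamma values was not tested.

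Genes around and between the arrays gave 1 lower and 1 higher call among 17 tested (19 listed), or 5.88% each way, against 3.65% and 2.14% of all genes tested. Taf7, a transcription factor subunit gene between the beta and gamma arrays, had 565 and 484 normalised reads in the control libraries, against 571 and 608 in the DcpS libraries, without a call. Diaph1, which encodes an actin-nucleating formin, lies 1.73 kb beyond the gamma array on the opposite strand, with its 3′ end facing the gamma 3′ end. It fell from 1092 and 1046 normalised reads to 779 and 674 (log2 fold change −0.56, SE 0.07, limma, Benjamini-Hochberg adjusted p 1.86e-04). Its 3′ UTR has ACGTGCA, and so does that of the next gene along, Hdac3, a histone deacetylase. Hdac3 had 2235 and 2299 normalised reads against 2385 and 2446, without a call, and Rnf14 rose (log2 fold change 0.25, SE 0.05).

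Delta protocadherins are the nearest relatives outside the arrays, each a single gene with its own promoter. Of the 10 tested, 4 were called lower and 2 higher, against 3.65% and 2.14% of all genes tested. Pcdh18 (−0.45, SE 0.07), Pcdh9 (−0.43, SE 0.06), Pcdh17 (−0.42, SE 0.07) and Pcdh7 (−0.29, SE 0.07) fell on the log2 scale, and Pcdh1 (0.35, SE 0.07) and Pcdh19 (0.27, SE 0.07) rose. Pcdh9 has both words in its 3′ UTR, and the other 5 called genes have neither. The calls of Pcdh7 and Pcdh19 ended with DESeq2, and those of Pcdh7, Pcdh19 and Pcdh1 when control 2 was left out (adjusted p 0.129, 0.0908 and 0.0534 in limma).

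**Figure D5:**
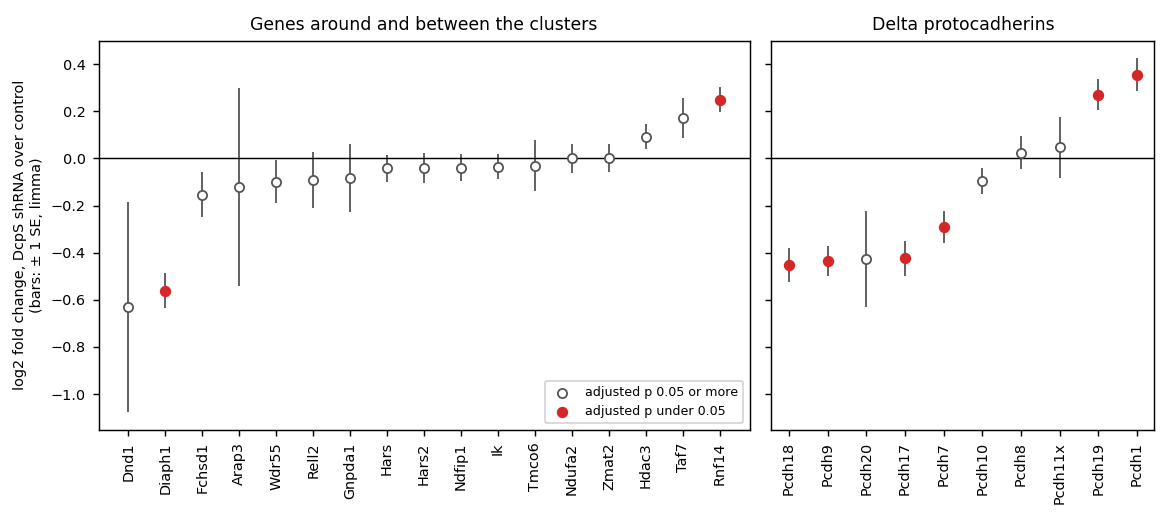
Log2 fold change of DcpS shRNA over control, with bars of 1 SE from limma, for 17 tested genes around the arrays (left) and 10 delta protocadherins (right), ordered by value. Filled points are called: Diaph1 is lower and Rnf14 higher on the left, and 4 are lower and 2 higher on the right.

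Of 14 genes for CTCF, cohesin and the factors that load or release it, 0 were called (limma), against 5.79% of all genes tested. They had 1 gene at an unadjusted p under 0.05 and a median of −0.01 on the log2 scale. DESeq2 and edgeR called 0 of them too. Of 14 genes for promoter silencing and DNA methylation 2 were called lower (14.3%, against 3.65% of all genes tested): the maintenance methyltransferase Dnmt1 (5268 and 5305 normalised reads against 4540 and 4283, log2 fold change −0.26, SE 0.05) and the 5-methylcytosine oxidase Tet2 (−0.26, SE 0.07). Dnmt1 lost its call when control 2 was left out (adjusted p 0.0520 in limma). Tet2 lost its call with DESeq2 and without control 1, control 2 or DcpS 2 (adjusted p up to 0.181).

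Of 18 partners in the membrane and cytoplasm 1 was called higher and 1 lower, or 5.56% each way, against 2.14% and 3.65% of all genes tested. Wasf1, a subunit of the WAVE complex that drives actin branching, rose (0.23, SE 0.05), and Ret, a receptor tyrosine kinase, fell (−0.89, SE 0.20). Of 6 genes for the proteases that cleave protocadherins, Adam10 fell (−0.19, SE 0.05). DESeq2 called none of these 3 genes. Over all 6 lists of regulators, partners, proteases, neighbours and delta protocadherins, the genes with either 3′ UTR word went both ways. Diaph1, Dnmt1 and Pcdh9 were called lower and Stag2 lay lower without a call (−0.12), while Hdac3 (0.09), Rac1 (0.08) and Aph1a (0.09) had both DcpS libraries above both controls without a call.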

How the data were processed

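The deposited table holds 1 column per library. Its values are a signal, gene counts that the authors divided by 1 size factor per library: divided by its column's lowest value above 0, each one came out whole (100% within 0.001), and the implied factors, 0.895 to 1.10, equalled median-of-ratios size factors. HISAT2 2.2.0, SAMtools 1.3.1, Picard, featureCounts, DESeq2 and GRCm38 are named per the submitters' processing notes; the sources here name no annotation, strand setting or rule for reads that fit several genes. The table's symbols matched GENCODE M21 in 31622 of 32681 rows.

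The test was limma 3.58.1 on log2(normalised read count + 1), with robust, trended empirical Bayes and group alone in the model, two-sided, adjusted by Benjamini-Hochberg over the 18110 genes kept by filterByExpr (minimum count 10). Fold changes on this scale understate the change of low genes. The fit has 2 residual degrees of freedom, and an exact permutation test of a single gene cannot go below p 0.333. Alternatives were edgeR 4.0.16 and DESeq2 1.42.0 on the recovered reads, other pseudocounts and scalings, no filter, a replicate block and leaving out each library. The script was tested on simulated counts of this comparison (17846 genes), with 4 of 157 calls false. It recovered 59.2% of 49 genes changed 1.3-fold, 60.0% of 50 changed 1.5-fold and 88.0% of 50 changed 2-fold. Intervals and the limit of 3 reads cover counting error only. Libraries of a group differed by more than sampling noise (chi-square per degree of freedom 2.15 and 4.03).

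Genes were named by rule: called members, the 3 most abundant of each subfamily, the 2 highest and 2 lowest fold changes of each array, members with 0 reads, and called genes of the lists. Pcdhga1, Pcdhga6, Pcdhga10, Pcdhga11, Pcdhgb8, Taf7, Hdac3, Stag2, Rac1, Aph1a and Dcps, the single markers, and the members at either end of the order per kilobase, were named after their values were seen. Members and lists were chosen with earlier results of these data known. Of the first-exon sequence of members, 10.0% to 23.4% of 50-base words of alpha 1 to 12, up to 12.0% of beta, up to 16.8% of gamma and 0% of C types also occur in another member, so short reads there could fit several members.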

Additional observations from a re-analysis of the deposited data

How the results depend on the processing

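The gamma array stayed lower in every alternative run: its median log2 fold change lay between −0.39 and −0.28, and its summed level at 77.5% to 82.5% of control over the scalings and left-out libraries. The count of called lower gamma members was 5 with other pseudocounts, other scalings and no filter, 6 with edgeR and 1 with DESeq2, and it ran from 1 to 7 without a library in turn. Without a library in turn, called higher alpha members ran from 0 to 1, called lower beta members from 0 to 1, genes called over all genes from 747 to 1745, and medians from −0.11 to 0.085 (alpha), −0.17 to −0.062 (beta) and −0.39 to −0.31 (gamma). DESeq2 called 448 genes in all. With the set number as a replicate block, 1626 genes were called, with 10 gamma members lower, 1 beta member lower (Pcdhb19) and 1 alpha member higher (Pcdhac2). The set numbers share only a number here: the deviations of same-numbered libraries from their group means correlated at 0.0429 across 18110 genes.

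Log2 fold changes that turned sign without a library were all uncalled. They ran from −0.090 (without control 1) to 0.42 for Pcdha12, from −0.14 (without DcpS 1, and −0.12 without control 1) to 0.24 for Pcdhb21, and from −0.062 (without control 2, and −0.01 without DcpS 1) to 0.091 for Pcdhb22. They ran from −0.024 to 0.017 (without control 2, and 0.01 without DcpS 1) for Pcdhb17, from −0.16 (without control 2) to 0.59 for Pcdhga5, and up to 0.032 (without DcpS 2) for Pcdhgc5. The cause was not tested. Where 1 library is left out, the lone library of its group is assumed to vary like the other group. Levels per kilobase with strand used or over all exons, and sums over tested members only, were added after the data were seen. Depth limits Pcdhb1, Pcdhga10, Pcdha4, Pcdha1 and Pcdhac1, with under 20 normalised reads each.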

Other observations

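Non-coding transcripts at the locus had few reads. The antisense gene Gm10544, which lies within Pcdhac2, had 62.7 and 53.3 normalised reads in the control libraries, against 53.6 and 53.6 in the DcpS libraries. The long non-coding RNA gene 3222401L13Rik, which ends just before Pcdhga1, had 91.2 and 93.3 against 83.6 and 95.0. Neither passed the test (limma, Benjamini-Hochberg adjusted p 0.839 and 0.916). Gm10544 and 3222401L13Rik were chosen after the values were seen.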
